A study of Mus musculus with 16 samples.

Results

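Rod photoreceptors of old mice were compared with those of young adults, using the 8 libraries of 3 months (3M) and 24 months (24M) out of 16 in the series, with 4 libraries per age. All 8 libraries were kept, and the rule that chose them used no measured value. Both groups were C57BL/6J mice carrying Nrlp-GFP, a transgene in which the promoter of Nrl drives green fluorescent protein, so that GFP marks the cells in which this promoter is active. Cells were released from the retina with papain, sorted by fluorescence and used when a second sort showed over 98% purity, per the labels' protocols. The protocol also names Nrl-KO mice with the reporter, but each of the 8 libraries is labelled with the reporter strain alone. Libraries came from 4 ng of total RNA with a stranded kit and 13 PCR cycles. The design text calls the 4 libraries of an age biological replicates. No text used here says whether a replicate was 1 animal or a pool, or states the sex of the animals, so p-values measure the spread between these libraries. The question the design asks is which RNAs of rods differ with age, and the account here goes past the largest changes to genes of middle rank, noncoding genes and neighbouring genes that moved together.

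Rods are the sensory neurons of dim light. Each packs the visual pigment rhodopsin into stacked membranes that are renewed every day and shed to the pigment epithelium, and rods are lost slowly with age while the cones they surround depend on them. Long noncoding RNAs are transcribed like messenger RNAs but carry no long reading frame, and many lie beside, inside or opposite a protein-coding gene. Bidirectional promoters start a pair of transcripts from nearby sites in opposite directions.

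Totals of the 8 libraries were 21319079 to 28791777 estimated counts, and 12177 of 45038 genes passed the filter of 5 CPM (counts scaled to the library size with TMM factors) in 4 of the 16 libraries. 24M replicate 3 stood apart from the other 7 libraries. Its slope of expression on GC content was 0.522 log2 units per 10 percentage points, against -0.164 to 0.286 in the others, its small noncoding RNA share was 22.6% of counts, against 13.2% to 19.5%, and it is not in the normalized table of the authors. The 20 rod markers were all tested, and their summed level was 49148 to 52955 CPM at 3M and 39809 to 47398 at 24M, without overlap, and 1 of 20 was called lower and none higher. Only 1 of the 20 log2 fold changes was above 0, and their median was -0.23, beside 0.01 over all tested genes. In bulk samples, fewer cells of a type and less RNA per cell cannot be told apart. Markers of other cells were partly present. The 17 Müller glia markers summed to 164 to 324 CPM at 3M and 215 to 348 at 24M, and of 14 tested none was called, but 13 were above 0 with a median log2 fold change of 0.41, beside 0.01 over all tested genes. The 20 microglia and macrophage markers summed to 35.6 to 40.5 CPM at 3M and 40.1 to 47.3 at 24M, with Itgam the highest (12.5 and 14.7 CPM on average), 1 of 3 tested called higher, and Tmem119 at 0 in every 3M library and at most 0.0492 CPM at 24M. Lymphocyte markers summed to 24.9 to 34.7 and 24.6 to 51.8 CPM, with Cd3d at 17.1 and 22.6 on average, Cd8a at 5.71 and 7.21, and Nkg7 and Gzma at 0 in all 8 libraries. Pigment epithelium markers summed to 22.9 to 28.7 and 23.7 to 25.8 CPM, with Rrh at 10.9 and 11.1 and Tyrp1 at 0, and red cell markers to 9.16 to 15.8 and 9.35 to 21.4, mostly Alas2. Endothelial and pericyte markers summed to 456 to 504 and 399 to 598 CPM, mostly Vtn at 439 and 423 on average. Kdr stood at 7.49 and 10.7 and Cdh5 at 0.271 and 0.258, and of 4 tested members 3 were above 0 and none was called. Horizontal cell markers summed to 36.4 to 45.6 CPM at 3M and 49.1 to 54.8 at 24M, without overlap, mostly Tpm3 and Onecut3. Lhx1 averaged 0.124 and 0.149 CPM at 3M and 24M, and Calb1 0.755 and 0.787. Onecut1 averaged 0.265 and 0.598, and Onecut2 0.732 and 0.895. Of these markers 1 of 2 tested was called, the transcription factor Onecut3 (log2 fold change 0.47, SE 0.11, edgeR adjusted p = 0.022). The call of Onecut3 was lost on leaving out 3M replicate 1 or 3M replicate 2 or 24M replicate 1 or 24M replicate 4 (adjusted p up to 0.095). The part of these cells in the results below was not tested.

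In the comparison of 24M with 3M, 323 genes were higher (2.65% of those tested) and 195 lower (1.6%) by edgeR's quasi-likelihood test at an adjusted p under 0.05, here named the called genes. Without 24M replicate 3 they numbered 400 and 241. With the GC slope of the libraries in the model they numbered 1231 and 1255, so that the share of higher genes among calls went from 62.4% to 49.5%. The higher genes had a median log2 fold change of 0.73, and the lower genes -0.60, while the median over all tested genes was 0.01. Called genes were of middling abundance, with a median of 20.1 CPM for the higher and 21.1 for the lower genes against 25.3 for all tested. The higher genes gained in sum from 9776 to 15344 CPM, and the lower genes fell from 14202 to 9598 CPM, differences that the calling itself selects. The 12M and 18M libraries enter neither side of the contrast but share its estimate of spread. Their mean levels lay in rising order between the 2 ends for 230 of the 323 higher genes (71.2%). Among tested genes with a positive difference this held for 870 of 6417 (13.6% of these, 7.14% of all tested). Falling order was seen for 122 of 195 lower genes (62.6%), against 815 of 5760 with a negative difference (14.1% of these, 6.69% of all tested). A wide gap between the ends leaves more room for ordered means between them. The higher shares of called genes therefore follow in part from the calling and are no separate support for gradual change. Among the called genes, 313 of 323 higher and 193 of 195 lower genes showed no overlap of old and young libraries, where 5.28% of all tested genes had every 24M library above every 3M library and 5.32% every one below. The calling used these same libraries and so favours such genes.

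**Figure D1:**
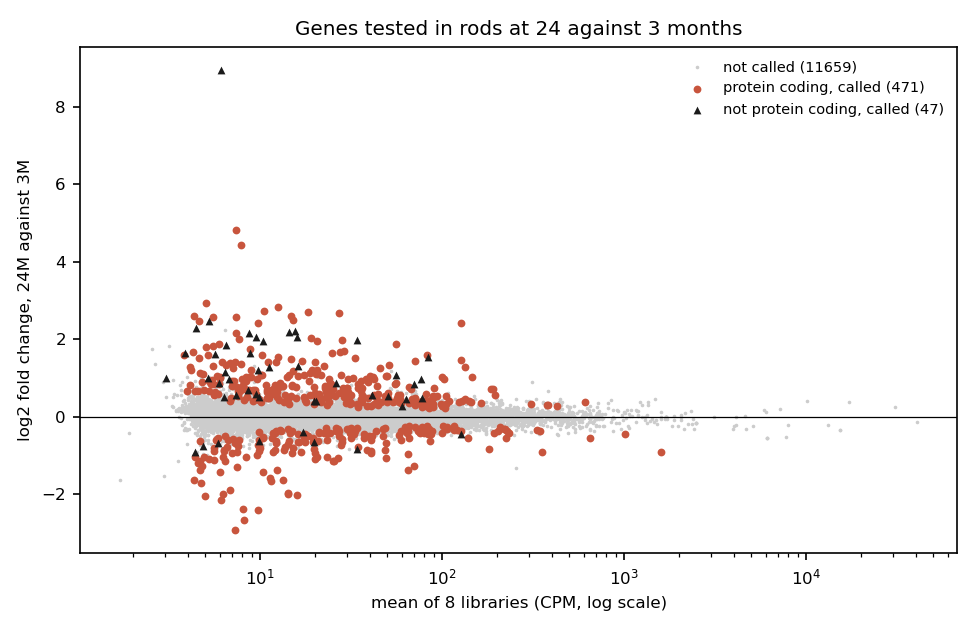
Each point is 1 of the 12177 tested genes, with its mean over the 8 libraries (CPM, log scale) on the x axis and its log2 fold change at 24M against 3M on the y axis; circles are the called protein-coding genes and triangles the 47 called genes that are not protein-coding. The triangle near the top is Gm28876 at 8.95, and most other triangles lie above 0.

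Genes that are not protein-coding made up 1891 of the tested genes, and 39 were higher and 8 lower at 24M (2.06% and 0.423% of them, beside 2.65% and 1.6% of all genes tested). By class, 12 of 460 lincRNA genes (intergenic long noncoding RNA) were higher and 2 lower. Antisense genes had 11 higher and 2 lower of 434, processed transcripts 7 and 1 of 195, and pseudogenes 7 and 3 of 275. None of 396 small noncoding RNA genes was called by edgeR, although 18 had an unadjusted p under 0.05, DESeq2 called 2 and limma voom 1. None of 25 genes of the mitochondrial genome was called by edgeR, while 0 had an unadjusted p under 0.05, DESeq2 called none and limma voom none. Median log2 fold changes were 0.14 for lincRNA, 0.10 for antisense genes, 0.11 for pseudogenes and -0.05 for small noncoding RNA. Whether the classes differ was not tested. Without 24M replicate 3 the noncoding counts were 49 and 16, and without 12M replicate 4, which shares the estimate of spread, 57 and 15. Without 3M replicate 3 only 4 were lower, and without 24M replicate 1 or 2, 5 were.

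The share of all counts held by a class did not pass a test. Small noncoding RNA took 17.5%, 17.7%, 17.4% and 19.5% of counts at 3M and 13.2%, 18.9%, 22.6% and 13.9% at 24M, so the old libraries spread on both sides of the young ones. lincRNA held 6.33% ± 0.335 at 3M and 6.29% ± 0.672 at 24M (SD of the libraries, n = 4). The mitochondrial genome held 1.67% ± 0.428 and 2.09% ± 0.246 (SD of the libraries, n = 4), with overlapping libraries. Over 7 classes the exact two-sided permutation test of 4 against 4 libraries gave adjusted p-values of 0.53 to 0.97, where 0.0286 is the smallest raw p the design allows.

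Gm28876, a lincRNA gene (ENSMUSG00000101356, chromosome 15, 103096151 to 103102111, minus strand, GRCm38), went from near absence to a readily counted RNA. Its estimated counts were 0, 1, 1 and 0 at 3M and 340, 192, 340 and 369 at 24M. The groups were far apart, and 24M replicate 3 lay with the other old libraries. Summed over libraries the level was 630-fold higher at 24M, with a 95% exact interval of 174-fold to 5212-fold that covers counting error only and rests on 2 counts at 3M (log2 fold change 8.95, SE 0.40, edgeR adjusted p = 2.5e-09, where the fitted value depends on a prior count). Means at 12M and 18M were 1.80 and 7.37 CPM, between 0.0196 at 3M and 12.3 at 24M. Gm28265, a second lincRNA gene directly beside Gm28876 on the same strand (ENSMUSG00000101588, chromosome 15, 103102284 to 103104602, minus strand), stood at 8.97, 4.87, 3.46 and 4.67 CPM at 3M and 29.96, 24.6, 23.6 and 23.9 at 24M. Every old library was above every young one, and the mean at 18M, 42.4 CPM, was above both ends (log2 fold change 2.21, SE 0.51, edgeR adjusted p = 0.019). The call of Gm28265 ended without 3M replicate 2 or 3M replicate 3 or 3M replicate 4 (adjusted p up to 0.071). Smug1, which encodes a DNA glycosylase that removes uracil, lies farther off at 103153290 to 103167092 on the same strand, within 50000 bases of Gm28265. It rose from 46.3 ± 4.57 to 68.6 ± 6.68 CPM (SD of the libraries, n = 4; log2 fold change 0.57, SE 0.09, edgeR adjusted p = 0.0011).

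Gm43263, a lincRNA gene, was among the better expressed noncoding genes that rose, at 13.6, 14.2, 14.01 and 13.0 CPM at 3M and 55.0, 49.3, 42.3 and 70.4 at 24M. The old libraries had no overlap with the young ones (log2 fold change 1.98, SE 0.17, edgeR adjusted p = 1.4e-06), and 49.2% of its 31-base words also occur in other annotated genes, 26.6% in Gm45848, so that reads can be shared. Gm2044, another lincRNA gene, stood at 4.78, 3.85, 4.97 and 3.54 CPM at 3M and 12.7, 13.3, 14.9 and 12.8 at 24M, with groups that did not overlap (log2 fold change 1.65, SE 0.15, edgeR adjusted p = 4.8e-06). Gm16201, a processed transcript that overlaps it on the opposite strand over 1035 bases of the gene spans, rose too (log2 fold change 0.97, SE 0.17, edgeR adjusted p = 0.0022). A930014E10Rik went from 1.51 to 4.22 CPM at 3M to 9.24 to 12.4 at 24M (log2 fold change 1.86, edgeR adjusted p = 0.00086). Gm11961, an antisense gene beside Ascc2, a subunit of a transcription coactivator complex, rose from 35.8 ± 4.14 to 75.7 ± 8.93 CPM (SD of the libraries, n = 4; log2 fold change 1.08, SE 0.10, edgeR adjusted p = 4.6e-06).

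Several pseudogenes that rose are near copies of other genes. Gm13136 shares 86.8% of its words with other genes, and Smarca5-ps, a copy of a chromatin remodeller, shares 76.9%. Both share most with Gm13135 (68.6% and 58.3% of their words), so reads can move between these copies. Smarca5-ps stood at 8.10, 7.13, 4.48 and 4.88 CPM at 3M and 39.6, 26.1, 8.41 and 29.1 at 24M. 24M replicate 3 was the lowest old library and only just above the highest young one, and the same library was lowest for Gm13136, at 3.22 CPM against 8.91 to 12.1 in the other old libraries. Log2 fold changes were 2.07 for Smarca5-ps and 2.48 for Gm13136 (edgeR adjusted p = 0.0082 and 0.00055). BC085271, a transcribed copy of Set, a histone chaperone, lies within Disp1, which encodes a transporter that releases Hedgehog proteins, on its strand. It rose from 1.51 ± 0.176 to 7.38 ± 2.49 CPM (SD of the libraries, n = 4; log2 fold change 2.28) while Disp1 rose by 0.93 on the log2 scale. Gm20778 shares 91% of its words, and the protein-coding Gm15319 96.3%, mostly with Gm21119 in both cases, so their rises (1.64 and 1.66) cannot be assigned to 1 copy.

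**Figure D2:**
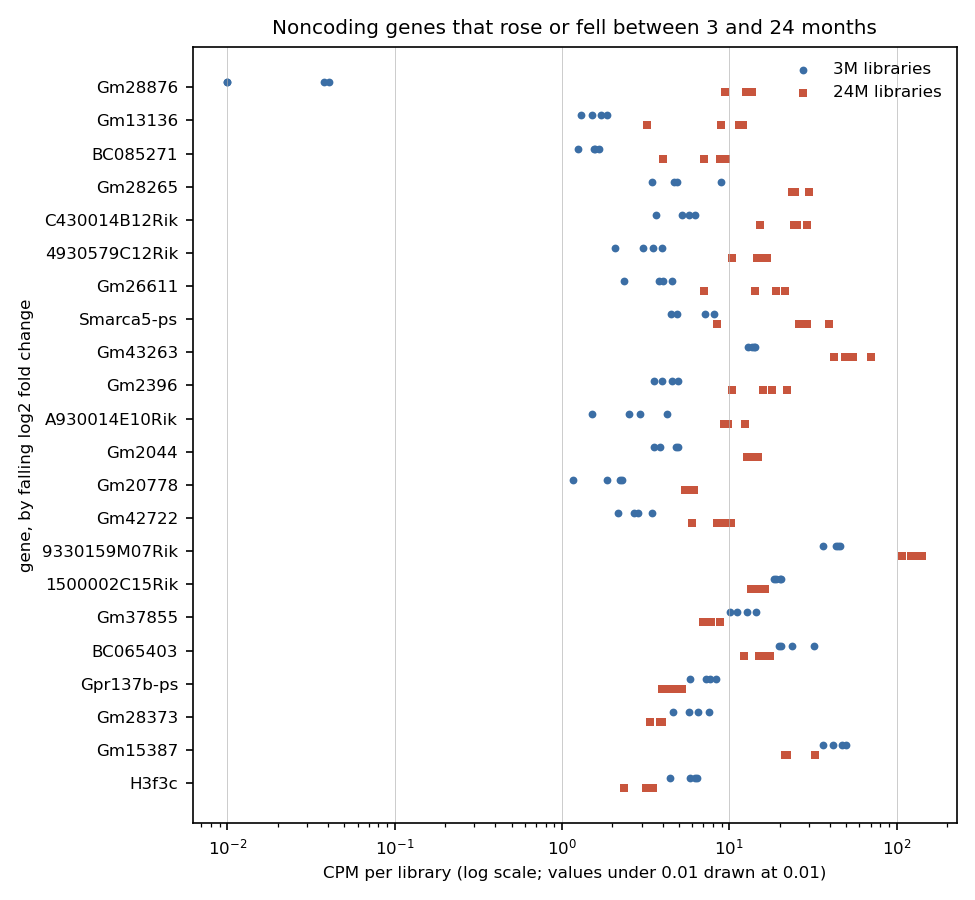
CPM (x axis, log scale) of each 3M library (circles) and 24M library (squares) for the 15 rising and 7 falling noncoding genes that the naming rule took, ordered by log2 fold change. Gm28876 at 3M has values at 0 drawn at 0.01, and for Gm13136 and Smarca5-ps the lowest square is 24M replicate 3.

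Many of the called noncoding genes lay on top of another expressed gene. Of the 47, 27 overlapped the span of a tested gene, 20 on the opposite strand, and 18 overlapped a gene that was itself called in the same direction, beside 4.25% of all tested genes called in either direction. That share is per gene, while some noncoding genes, such as Gm26672 and Pcdhgb8, overlap many tested genes. The same count for uncalled noncoding genes was not made, so the 18 are a description. None of the 47 overlapped a gene called in the other direction. For 15 of them exon bases were shared with a tested gene on the opposite strand, and since no source used here gives the strand setting of the counting, the reads of both partners cannot be told apart there. C430014B12Rik overlaps Col4a3 by 563 exon bases on the opposite strand and stood at 5.73, 5.21, 6.23 and 3.63 CPM at 3M and 29.1, 25.4, 15.3 and 24.3 at 24M (log2 fold change 2.17, SE 0.27, edgeR adjusted p = 9.9e-05). Its old libraries lay above the young ones, as those of Col4a3 did. Gm42722 overlaps Chil5, a chitinase-like gene, by 301 exon bases and Pifo, a gene of primary cilium disassembly, in its span alone. The 3 genes had log2 fold changes of 1.61, 1.60 and 1.52 (edgeR adjusted p = 0.00035, 0.00018 and 0.0057). 2410124H12Rik and Clic6, a chloride intracellular channel protein, overlap on the same strand with no shared exon base and rose by 1.15 and 1.22. Gm7628 overlaps Plxnb1 by 257 exon bases on the opposite strand and rose by 0.58, beside 0.56 for Plxnb1. The call of Plxnb1 ended without 3M replicate 1 or 3M replicate 2 (adjusted p up to 0.075).

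Of the falling noncoding genes, H3f3c and Gm15387 are processed pseudogenes of whose words 91.3% and 100% occur in other genes, so their reads cannot be assigned. Gm37855, a lincRNA gene opposite Kirrel, stood at 10.1, 11.1, 14.5 and 12.7 CPM at 3M and 7.60, 6.94, 7.74 and 8.81 at 24M. Its groups did not overlap (log2 fold change -0.63, SE 0.13, edgeR adjusted p = 0.0076), and Kirrel, a cell adhesion protein of the nephrin family, fell as well (log2 fold change -0.95, SE 0.07, edgeR adjusted p = 6.8e-07) without any exon base shared. Gm28373, a processed transcript that shares 109 exon bases with Itpk1, an inositol phosphate kinase, on the same strand, fell by 0.75 on the log2 scale and Itpk1 by 0.94. Gpr137b, a multipass protein of lysosomes, and its copy Gpr137b-ps fell by 1.12 and 0.67, and 36.4% and 38% of their words are shared. BC065403 went from 24.0 ± 5.58 to 15.4 ± 2.31 CPM (SD of the libraries, n = 4) and 1500002C15Rik from 19.5 ± 0.924 to 14.9 ± 1.28 CPM (SD of the libraries, n = 4), with log2 fold changes of -0.64 and -0.39. The calls of BC065403 and Gm28373 each ended when any 1 of 3 libraries was left out (highest adjusted p 0.1 on leaving out 24M replicate 1 and 0.077 on leaving out 3M replicate 3), and that of 1500002C15Rik ended when any 1 of 7 libraries was left out (highest adjusted p 0.13, on leaving out 24M replicate 4). F630040K05Rik, the eighth lower noncoding gene, had overlapping libraries (log2 fold change -0.46, SE 0.12, edgeR adjusted p = 0.038) and was named after its values were seen. Its call ended when any 1 of 9 libraries was left out (highest adjusted p 0.13, on leaving out 24M replicate 1).

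Called genes stood next to each other on the chromosomes in a number of places. With the 506 genes that were called and had no overlap between the libraries of the 2 ages (4.16% of those tested), 101 genes formed 39 loci in which neighbours lay at most 50000 bases apart. In 27 loci all genes rose, in 9 all fell and in 3 both directions met, and 9 loci held 3 or more genes. How many such loci the gene density alone gives was not tested. The largest locus held 14 genes, 13 gamma protocadherins and Gm26672, a processed transcript.

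A stretch of chromosome 9 from Snhg5 to Mthfs (88521050 to 89377713, GRCm38) held 14 tested genes, of which 9 were higher and none lower (2.65% and 1.6% of all genes tested were). It was marked out after those calls were seen, so its count is a description, and without 24M replicate 3 the count was the same. The genes belong to small duplicated families: Trim43a, Trim43b and Trim43c encode tripartite motif proteins, and Mthfs and Mthfsl a folate enzyme and its relative. Of the others, Zfp949 is a zinc finger gene and 8 are noncoding. 9330159M07Rik, a processed transcript, stood at 45.6, 44.9, 43.7 and 36.2 CPM at 3M and 142, 122, 107 and 128 at 24M. Gm26611, a lincRNA gene that starts beside it in the other direction, stood at 4.01, 4.53, 3.79 and 2.33 CPM at 3M and 21.4, 14.3, 7.07 and 18.9 at 24M. In both, all old libraries were above all young ones (log2 fold change 1.55, SE 0.15, edgeR adjusted p = 8.9e-06 for the first and log2 fold change 2.07, SE 0.35, edgeR adjusted p = 0.0016 for the second), and in Gm26611 24M replicate 3 was the lowest of the old.

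Trim43c stood at 8.57, 8.19, 6.88 and 6.22 CPM at 3M and 38.2, 27.6, 25.2 and 31.5 at 24M (log2 fold change 2.03, SE 0.21, edgeR adjusted p = 1.3e-05), with no overlap. Trim43a (0.47, adjusted p = 0.18) and Trim43b (0.39, adjusted p = 0.5) did not pass the edgeR test. Gm2396 and 4930579C12Rik rose by 1.96 and 2.17 on the log2 scale, Gm10634 by 1.28, 9430037G07Rik by 0.54, Mthfsl by 0.55 and Mthfs by 0.73. The call of Mthfsl ended without 3M replicate 2 or 3M replicate 4 or 24M replicate 1 or 24M replicate 4 (adjusted p up to 0.072). Gm29562, a lincRNA gene with 87.2% of its words in other genes, had 68.9 ± 6.68 CPM at 3M and 89.99 ± 2.02 at 24M and did not pass (0.39, adjusted p = 0.091). At the low-coordinate end Snhg5, a snoRNA host, had -0.13 (adjusted p = 0.88) and Zfp949 0.20 (adjusted p = 0.59). Shared sequence limits the assignment of reads within the stretch: 71.8% of the words of Trim43c, 67.2% of 4930579C12Rik, 54.8% of Gm10634 and 47.4% of 9330159M07Rik occur in other genes, and Trim43c and 9330159M07Rik overlap over 768 exon bases on opposite strands. Gm2396 shares 27.2%.

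**Figure D3:**
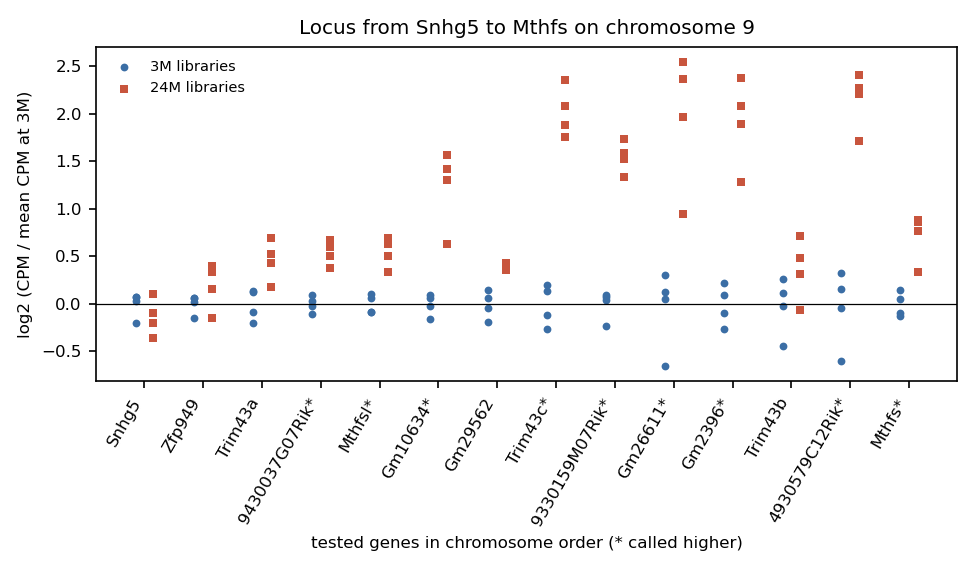
Log2 of CPM over the mean CPM at 3M (y axis) in each 3M library (circles) and 24M library (squares) for the 14 tested genes of the chromosome 9 stretch in chromosome order (x axis). The squares of Trim43c, 9330159M07Rik, Gm26611, Gm2396 and 4930579C12Rik lie well above the circles, while those of Snhg5 and Zfp949 overlap them.

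Head-to-head pairs, in which 2 tested genes start at most 500 bases apart in opposite directions, numbered 622. In 2 pairs both genes were called, in 21 only 1 was, and in 599 neither, beside 4.25% of all tested genes called. The pairs with both called were Col4a4 with Col4a3, whose start sites lie 72 bases apart, and 9330159M07Rik with Gm26611, 141 bases apart. In both, both genes rose. Dock4, a guanine nucleotide exchange factor, had the largest log2 fold change among the pairs with 1 called gene (log2 fold change 1.21, SE 0.25, edgeR adjusted p = 0.0082) and stood at 5.83, 6.53, 4.28 and 4.88 CPM at 3M and 12.9, 14.2, 7.39 and 15.4 at 24M, without overlap. Zfp277, a zinc finger gene whose start lies 50 bases away, stood at 23.3, 22.3, 19.5 and 15.3 CPM at 3M and 23.2, 23.4, 12.7 and 21.4 at 24M, with overlapping groups (log2 fold change 0.00, SE 0.22, edgeR adjusted p = 1). The stretches between the starts are given below for the 2 pairs that rose together and for this pair in which 1 gene rose alone. They are the plus strand of GRCm38.p6 from RefSeq, at chr1:82586820-82586950, chr9:88858718-88859017 and chr12:40445873-40445981, and capitals mark the bases between the 2 annotated start sites.
Col4a4 and Col4a3: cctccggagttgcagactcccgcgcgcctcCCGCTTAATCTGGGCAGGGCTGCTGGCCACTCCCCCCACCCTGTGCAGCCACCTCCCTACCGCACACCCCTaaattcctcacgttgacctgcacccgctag
9330159M07Rik and Gm26611: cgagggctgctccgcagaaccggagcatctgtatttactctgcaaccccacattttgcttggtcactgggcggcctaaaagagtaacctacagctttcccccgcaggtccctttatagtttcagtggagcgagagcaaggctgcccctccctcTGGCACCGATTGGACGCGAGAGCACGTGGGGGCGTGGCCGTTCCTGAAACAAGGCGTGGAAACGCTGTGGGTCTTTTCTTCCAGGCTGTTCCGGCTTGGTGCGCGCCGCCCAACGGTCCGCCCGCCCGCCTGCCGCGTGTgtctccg
Zfp277 and Dock4: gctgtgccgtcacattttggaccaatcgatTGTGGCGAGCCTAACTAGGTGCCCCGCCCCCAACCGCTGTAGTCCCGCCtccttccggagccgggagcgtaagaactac
The bases between the starts were 69%, 67.9% and 69.4% G or C, in that order, and held 2, 18 and 4 CG dinucleotides over 71, 140 and 49 bases. The letters TAATCC, the core bound by the photoreceptor factor Crx, were in none of the 3 printed stretches on either strand, and 7.06% of 32817 RefSeq promoters of 300 bases hold them. TATAAA occurred 1 time in the stretch of 9330159M07Rik and Gm26611 (13.6% of promoters) and CACGTG, the E-box letters, 1 time in the same stretch (7.15% of promoters), and in neither of the others. Both strands were searched, and these 2 matches do not overlap. The TATAAA match lies in the lower-case bases outside the 2 start sites, and the CACGTG match lies in the capitals between them. The stretch of 9330159M07Rik and Gm26611 is 300 bases long, as those promoters are. The other 2 stretches have 131 and 109 bases, so fewer positions were searched in them and the 3 cannot be compared by their matches. A match is no evidence that a factor binds.

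**Figure D4:**
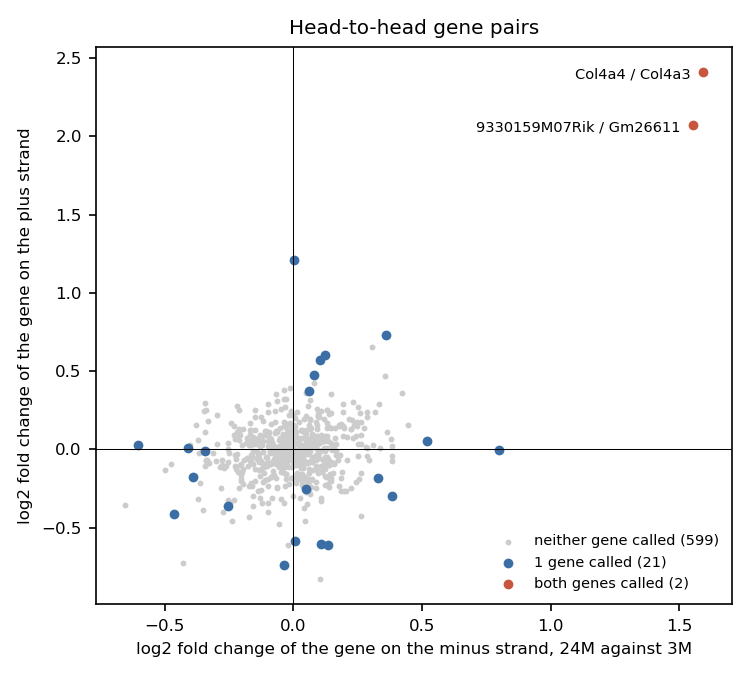
Log2 fold changes at 24M against 3M of the 2 genes of each of 622 head-to-head pairs, the gene on the minus strand on the x axis and the gene on the plus strand on the y axis. The 2 pairs with both genes called stand in the upper right, and the 21 pairs with 1 called gene (blue) spread along both axes.

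Col4a3 and Col4a4 encode chains of the type IV collagen of mature basement membranes. Col4a3 stood at 52.0, 46.7, 38.4 and 24.5 CPM at 3M and 251, 212, 147 and 248 at 24M, and Col4a4 at 39.7, 43.9, 46.6 and 34.3 CPM at 3M and 143, 114, 114 and 125 at 24M. Both rose in every old library relative to every young one, and 24M replicate 3 was the lowest old library for both. Log2 fold changes were 2.41 (SE 0.29) and 1.59 (SE 0.17), and the difference between the 2 genes was not tested.

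Other neighbours also rose together. Nav1, a microtubule-associated neuron navigator, and the lincRNA gene Gm38399 rose by 1.05 and 1.20, and share 134 exon bases on the same strand. Stard9, a kinesin of mitotic spindle poles, and Cdan1, a nuclear protein mutated in a congenital anaemia, rose by 0.98 and 0.72 and overlap by 2207 exon bases on opposite strands. Cdan1 also shares 3409 exon bases on the same strand with Ttbk2, which was not called (0.06). Of the words of Cdan1 46.1% occur in other genes, 28.8% in Ttbk2. Cdan1-207, a transcript without an annotated reading frame, held 62.5% and 60.2% of the counts of Cdan1. Tmem116 rose by 1.96 with Adam1a at 0.71, over 848 shared exon bases. Of the words of Adam1a 78.4% occur in other genes, 63.1% in Gm42878, which was not called (0.21), so the reads of Adam1a cannot be assigned with certainty. The histone genes Hist3h2ba and Hist3h2a and the pseudogene Gm12260 rose by 1.41, 0.72 and 0.86. Npc1, which exports cholesterol from lysosomes, and Rmc1, part of a lysosomal trafficking complex, rose by 0.44 and 0.36, and the call of Rmc1 ended without 3M replicate 1 or 3M replicate 2 or 24M replicate 3 (adjusted p up to 0.096).

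The retinol dehydrogenase genes Rdh1, Rdh16f1 and Rdh16 on chromosome 10, which encode oxidoreductases of retinol and steroids, rose by 0.98, 2.59 and 0.45. Rdh1 stood at 26.0, 22.5, 18.0 and 15.3 CPM at 3M and 44.4, 41.9, 32.0 and 43.1 at 24M, with no overlap (edgeR adjusted p = 0.0025). All words of Rdh16f1 occur in other genes, 89.3% in Rdh9, which did not pass (1.05, adjusted p = 0.051), so the 2 cannot be separated. The call of Rdh16f1 ended when any 1 of 3 libraries was left out (highest adjusted p 0.07, on leaving out 3M replicate 4) and that of Rdh16 without 3M replicate 2 or 3M replicate 4 or 24M replicate 2 or 24M replicate 4 (adjusted p up to 0.082).

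In 3 loci the neighbours moved in opposite directions. Gngt1, the gamma subunit of rod transducin, fell while its neighbour Gng11, a widely expressed G protein gamma subunit, rose. Gng11 stood at 3.03, 3.73, 3.34 and 4.97 CPM at 3M and 7.08, 9.60, 8.69 and 5.78 at 24M and Gngt1 at 1259, 1218, 1069 and 1153 CPM at 3M and 813, 966, 875 and 792 at 24M. No library overlapped in either gene, and the levels of Gng11 were a small part of those of Gngt1 (log2 fold change 1.05, SE 0.22, edgeR adjusted p = 0.0082 and log2 fold change -0.45, SE 0.12, edgeR adjusted p = 0.038). The call of Gngt1 ended when any 1 of 9 libraries was left out (highest adjusted p 0.13, on leaving out 24M replicate 4). Tet1, a methylcytosine oxidase, fell by 0.50 beside Dna2, a nuclease and helicase of replication, which rose by 0.42. Tet1 lost its call without 3M replicate 3 or 24M replicate 1 or 24M replicate 4 (adjusted p up to 0.057). Hist2h2aa1, all of whose words occur in Gm20633 so that its reads cannot be assigned, fell by 0.93 and Hist2h2be rose by 0.41, and these calls ended when any 1 of 11 and 10 libraries was left out (highest adjusted p 0.16 on leaving out 24M replicate 1 and 0.14 on leaving out 24M replicate 4). Ttyh2, a membrane protein of the tweety family, and Dnaic2, an axonemal dynein chain, fell together by 1.10 and 2.67.

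Protocadherins are neuronal adhesion proteins. Genes of the gamma cluster each join 1 variable exon to shared constant exons. Of 22 gamma genes 21 were tested, 13 were higher (2.65% of all genes tested were), none was lower, and all 21 log2 fold changes were above 0, from 0.15 to 1.14 with a median of 0.80. Their summed level was 503, 519, 466 and 428 CPM at 3M and 949, 898, 612 and 875 at 24M. Each old library was above each young one, with 24M replicate 3 the lowest of the old, and without that library 18 of the 21 were higher. In each tested member 37.4% or more of the words occur in other genes, so the 21 values are not independent, and the split of reads among members is uncertain.

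Pcdhgb6 stood at 38.5, 39.3, 39.9 and 40.6 CPM at 3M and 81.0, 79.5, 58.5 and 70.7 at 24M and Pcdhga9 at 29.97, 35.7, 31.3 and 32.4 CPM at 3M and 77.7, 70.5, 50.7 and 70.7 at 24M (log2 fold change 0.87, SE 0.12, edgeR adjusted p = 0.00029 and log2 fold change 1.06, SE 0.17, edgeR adjusted p = 0.0012). Both had 24M replicate 3 as the lowest old library and no overlap. Pcdhgc3 had the smallest difference (0.15, adjusted p = 0.5), although its old libraries also lay above the young ones. Pcdhgc4 and Pcdhgc5 rose by 0.83 and 0.78, and these calls ended when any 1 of 6 and 7 libraries was left out (highest adjusted p 0.096 on leaving out 3M replicate 2 and 0.11 on leaving out 3M replicate 4). The other clusters were barely expressed: 1 of 14 alpha genes was tested, Pcdha12, which rose (log2 fold change 1.19, SE 0.19, edgeR adjusted p = 0.0011), and 5 of 22 beta genes were tested with none called and a median of -0.10. Of the words of Pcdha12 69.9% occur in other genes, 59.5% in Pcdha11, so its rise cannot be assigned to it alone. The 14 alpha genes summed to 12.6 to 14.2 CPM at 3M and 19.4 to 24.7 at 24M, without overlap. Of 12 protocadherins outside the clusters 2 were tested and none was called. Gm26672, which runs opposite the gamma genes and shares 422, 771 and 1381 exon bases with the tested members Pcdhga12, Pcdhgb7 and Pcdhga11, rose by 0.85.

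**Figure D5:**
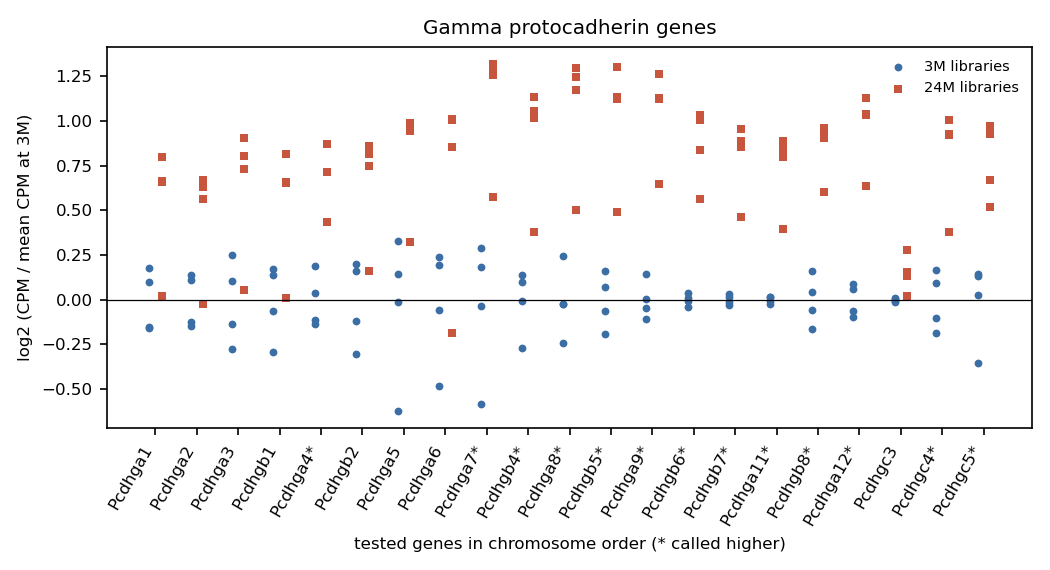
Log2 of CPM over the mean CPM at 3M (y axis) in each 3M library (circles) and 24M library (squares) for the 21 tested gamma protocadherin genes in chromosome order (x axis). The lowest square of each of the 21 genes is 24M replicate 3, and Pcdhgc3 shows the smallest gap.

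Protein-coding genes that rose at ranks 13 to 36 by size of change encode transporters, kinases, matrix and signalling proteins. Among transporters, Slc29a4, which carries monoamines across the plasma membrane, stood at 2.37, 2.79, 2.40 and 4.75 CPM at 3M and 9.21, 11.1, 17.4 and 11.3 at 24M, and Slc41a2, a magnesium transporter, at 2.30, 2.98, 2.16 and 1.60 CPM at 3M and 8.53, 8.22, 8.10 and 6.80 at 24M. In both the old libraries lay clear of the young ones (log2 fold change 1.998, SE 0.35, edgeR adjusted p = 0.0023 and log2 fold change 1.80, SE 0.19, edgeR adjusted p = 1.7e-05). Glb1l3, a relative of beta-galactosidase, stood at 26.2, 22.9, 23.3 and 22.5 CPM at 3M and 91.7, 89.3, 75.1 and 93.5 at 24M, and it had reached a mean of 81.4 CPM by 12M (log2 fold change 1.88, SE 0.09, edgeR adjusted p = 4e-09). Tmem116, a multipass membrane protein, stood at 7.62, 8.37, 8.68 and 8.86 CPM at 3M and 34.1, 29.5, 33.4 and 33.6 at 24M, with narrow groups far apart (log2 fold change 1.96, SE 0.09, edgeR adjusted p = 2.5e-09).

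Of the signalling genes, Tec, a nonreceptor tyrosine kinase, rose from 6.37 ± 1.21 to 18.6 ± 2.73 CPM (SD of the libraries, n = 4) and Gckr, the inhibitor protein of glucokinase, from 38.4 ± 3.19 to 104 ± 4.43 CPM (SD of the libraries, n = 4). Their log2 fold changes were 1.55 and 1.43 (edgeR adjusted p = 1.5e-06 and 6.2e-07). A retained-intron transcript, Gckr-207, held 83.1% of the estimated counts of Gckr at 3M and 82.7% at 24M, and Tec-205, annotated for nonsense-mediated decay, 31.4% and 32.2% of those of Tec. Irs1, an adaptor of the insulin receptor, stood at 7.62, 6.60, 6.35 and 16.1 CPM at 3M and 25.3, 25.3, 22.2 and 26.4 at 24M, where 3M replicate 4 was more than the other 3 young libraries but below every old one (log2 fold change 1.44, SE 0.24, edgeR adjusted p = 0.0015). Ip6k3, an inositol hexakisphosphate kinase, rose by 1.74, with 24M replicate 3 the highest library at 19.6 CPM. Ptprn, a phosphatase-like protein of secretory vesicles, stood at 12.2, 11.6, 12.9 and 11.8 CPM at 3M and 42.5, 34.4, 41.5 and 32.9 at 24M (log2 fold change 1.64, SE 0.13, edgeR adjusted p = 7.9e-07). Edn2, the vasoactive peptide endothelin 2, changed late: its means were 2.54, 2.89, 3.05 and 9.37 CPM from 3M to 24M, and its old libraries ran from 5.66 to 15.01 CPM (log2 fold change 1.87, SE 0.29, edgeR adjusted p = 0.00073).

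Of matrix genes, Fndc1, a protein of fibronectin type III domains, stood at 66.3, 63.6, 71.9 and 68.3 CPM at 3M and 186, 179, 190.2 and 189 at 24M, and Col19a1, a collagen of basement membrane zones, at 22.2, 17.4, 15.2 and 14.1 CPM at 3M and 62.7, 50.02, 35.8 and 48.7 at 24M. Neither had overlapping groups (log2 fold change 1.46, SE 0.10, edgeR adjusted p = 9.4e-08 and log2 fold change 1.51, SE 0.19, edgeR adjusted p = 9e-05). Col19a1-203, a transcript without an annotated reading frame, held 89.1% of the counts of Col19a1 at 3M and 65.6% at 24M. Among nuclear proteins, Gsc2, a homeobox factor, rose from 2.70 ± 0.323 to 12.01 ± 1.91 CPM (SD of the libraries, n = 4; log2 fold change 2.15) and Zbtb8a, a zinc finger protein, from 13.6 ± 0.607 to 44.5 ± 3.81 CPM (SD of the libraries, n = 4; 1.71), with 16.4% of the words of Zbtb8a found in other genes. Tril, a partner of Toll-like receptors, rose by 1.59, A1bg, a plasma glycoprotein, by 1.59 and Specc1, a cytoskeletal cytospin, by 1.495. Dnah7c, an axonemal dynein heavy chain, stood at 14.4, 11.2, 11.4 and 8.34 CPM at 3M and 53.6, 50.1, 20.4 and 55.5 at 24M, where 24M replicate 3 was less than the other old libraries, and 61.6% of its words are shared, mostly with Dnah7b (log2 fold change 1.98, SE 0.34, edgeR adjusted p = 0.0019).

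Falls at ranks 13 to 36 included actin and myosin regulators and adhesion proteins. Myo10, a myosin of filopodia, stood at 95.7, 101, 99.3 and 104 CPM at 3M and 37.2, 39.2, 45.0 and 42.7 at 24M, and Mylk, the kinase of myosin light chain, at 84.02, 94.1, 92.2 and 105 CPM at 3M and 35.8, 37.4, 32.4 and 38.9 at 24M. All old libraries were below all young ones (log2 fold change -1.28, SE 0.11, edgeR adjusted p = 1.5e-06 and log2 fold change -1.38, SE 0.12, edgeR adjusted p = 1.9e-06), and both means had already dropped by 12M, to 49.96 and 52.1 CPM. The cell adhesion proteins Nectin1 and Nectin3 fell by 1.06 and 0.94 on the log2 scale, and Podxl2, a sialomucin, by 1.37. Kirrel stood at 78.3, 82.8, 89.1 and 92.3 CPM at 3M and 44.7, 44.8, 46.9 and 40.5 at 24M. Its groups were narrow and apart.

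Among enzymes and membrane proteins, Shmt2, the mitochondrial serine hydroxymethyltransferase, went from 27.6 ± 4.02 to 13.5 ± 2.96 CPM (SD of the libraries, n = 4; log2 fold change -1.03) and Lactbl1, a lactamase-like protein, from 35.0 ± 4.97 to 15.9 ± 2.32 CPM (SD of the libraries, n = 4; -1.13). Slc6a8, the creatine transporter, stood at 8.28, 7.73, 7.54 and 12.1 CPM at 3M and 3.74, 4.28, 4.28 and 3.78 at 24M (log2 fold change -1.15, SE 0.25, edgeR adjusted p = 0.012), with 3M replicate 4 the highest. Atp9a, a phospholipid flippase, fell by 1.42 and Syt9, a synaptotagmin, by 1.00. Mvb12b, a subunit of the ESCRT-I sorting complex, fell from 19.7 ± 0.590 to 10.4 ± 1.25 CPM (SD of the libraries, n = 4; -0.93). Of regulators, Ahdc1, a DNA-binding protein with AT hooks, stood at 32.5, 33.6, 35.5 and 37.2 CPM at 3M and 13.99, 16.4, 18.9 and 13.2 at 24M (log2 fold change -1.15, SE 0.13, edgeR adjusted p = 3.9e-05). Hr, the hairless corepressor of nuclear receptors, fell by 1.09, Rasl11a, a small Ras-like GTPase, by 1.04 and Bhlhb9 by 1.30.

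Of the highest-expressed called genes, Pdc, which binds transducin beta-gamma, stood at 2429, 2259, 1829 and 1877 CPM at 3M and 1063, 1339, 954 and 1079 at 24M, and its old libraries were all below the young ones (log2 fold change -0.92, SE 0.13, edgeR adjusted p = 0.00041). Fam3c, a secreted cytokine-like protein, went from 389 ± 31.5 to 299 ± 18.6 CPM (SD of the libraries, n = 4; -0.38) and Anp32e, a chaperone that removes histone H2A.Z, from 375 ± 10.2 to 293 ± 14.7 CPM (SD of the libraries, n = 4; -0.36). Hmgn1, a nucleosome-binding protein, fell by 0.56 and Tcf20, a transcriptional coregulator, by 0.55. The calls of Hmgn1 and Tcf20 ended when any 1 of 5 libraries was left out (highest adjusted p 0.092, on leaving out 24M replicate 1) and on leaving out 24M replicate 4 (adjusted p = 0.051). Among the rises, Plec, the cytoskeletal linker plectin, stood at 69.2, 87.1, 94.1 and 138 CPM at 3M and 185, 191, 242 and 171 at 24M (log2 fold change 1.02, SE 0.21, edgeR adjusted p = 0.0077), and Lima1, an actin-bundling protein, at 142, 150.2, 145 and 140.3 CPM at 3M and 197, 185, 181 and 179 at 24M (log2 fold change 0.36, SE 0.07, edgeR adjusted p = 0.0033). Neither overlapped. Med13l, a Mediator kinase module subunit, rose by 0.39 and Usp48, a deubiquitinase, by 0.30. These calls ended when any 1 of 5 and 4 libraries was left out (highest adjusted p 0.11 on leaving out 24M replicate 1 and 0.067 on leaving out 3M replicate 2).

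Gene lists of pathways are described by their counts, beside 2.65% of all tested genes higher, 1.6% lower and a median of 0.01. Of 23 tested semaphorin, plexin, ephrin, slit and netrin genes, which guide axons and shape contacts between cells, 5 were higher and 2 lower, with a median of 0.15. Sema6c, a transmembrane semaphorin, stood at 22.9, 28.9, 32.2 and 26.8 CPM at 3M and 51.9, 47.4, 74.3 and 51.5 at 24M. The semaphorin receptor Plxna3 stood at 6.60, 5.96, 6.15 and 7.22 CPM at 3M and 12.3, 12.3, 15.4 and 10.7 at 24M, and another, Plxnb2, at 27.5, 27.2, 30.5 and 41.1 CPM at 3M and 13.1, 13.98, 19.3 and 14.6 at 24M. None of these 3 had overlapping groups (log2 fold change 1.02, SE 0.14, edgeR adjusted p = 0.00029 for Sema6c, log2 fold change 0.97, SE 0.13, edgeR adjusted p = 0.00029 for Plxna3 and log2 fold change -1.05, SE 0.20, edgeR adjusted p = 0.0039 for Plxnb2). Efnb1, an ephrin, rose by 1.27 (edgeR adjusted p = 0.0042).

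Of 20 Hippo pathway genes, Lats2, the kinase that restrains the coactivators of the pathway, rose from 67.0 ± 2.72 to 88.7 ± 3.38 CPM (SD of the libraries, n = 4; log2 fold change 0.41, SE 0.06, edgeR adjusted p = 0.001), and Wwtr1, the coactivator TAZ, fell from 12.1 ± 0.503 to 7.33 ± 0.679 CPM (SD of the libraries, n = 4; log2 fold change -0.72, SE 0.10, edgeR adjusted p = 0.00035). Frmd6, an upstream FERM protein, fell by 0.62, and its call ended when any 1 of 13 libraries was left out (highest adjusted p 0.15, on leaving out 24M replicate 2). The list had 1 higher, 2 lower and a median of 0.0026, and 41.8% of the words of Lats2 are shared, almost all with Gm49361. Of 24 nuclear receptors 2 were higher and 1 lower: the retinoic acid receptor genes Rarb and Rarg rose by 0.50 and 0.84, and Rorb, a receptor needed for rod development, stood at 569.8, 461, 417 and 405 CPM at 3M and 271, 289, 147 and 278 at 24M (log2 fold change -0.91, SE 0.24, edgeR adjusted p = 0.046). 24M replicate 3 was the lowest for Rorb. Of the words of Rarb 35.7% occur in other genes, 32.1% in Top2b, so reads can be shared. The call of Rorb ended when any 1 of 12 libraries was left out (highest adjusted p 0.14, on leaving out 3M replicate 1), and that of Rarg without 3M replicate 1 or 3M replicate 2 or 3M replicate 3 (adjusted p up to 0.076). Rorb also counts in the circadian list, where of 19 tested genes Hlf, a clock-output factor, rose (0.57, with overlapping libraries), and Csnk1e, a clock kinase, and Rorb fell. The calls of Hlf and Csnk1e ended when any 1 of 2 and 3 libraries was left out (highest adjusted p 0.057 on leaving out 3M replicate 2 and 0.076 on leaving out 24M replicate 4).

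Of 11 dual-specificity phosphatases, enzymes that switch off MAP kinases, 2 were lower and none higher. Dusp26 stood at 7.73, 7.54, 7.62 and 9.21 CPM at 3M and 1.57, 2.46, 2.005 and 1.80 at 24M and Dusp5 at 11.96, 9.54, 11.3 and 12.1 CPM at 3M and 4.62, 5.02, 6.60 and 5.51 at 24M, each with all old libraries below the young ones (log2 fold change -2.04, SE 0.29, edgeR adjusted p = 0.00038 and log2 fold change -1.04, SE 0.19, edgeR adjusted p = 0.0038). Of 28 endocytosis and engulfment genes 2 were higher, Abca1, a cholesterol exporter (1.28), and Lrp4, a lipoprotein receptor family member (0.44), and 1 lower, Gulp1. The call of Lrp4 ended without 3M replicate 1 or 3M replicate 2 or 24M replicate 1 or 24M replicate 3 (adjusted p up to 0.089). Dll1, a Notch ligand, was the single called gene of 18 in the Notch list (log2 fold change 0.73, SE 0.14, edgeR adjusted p = 0.0037), Pros1, a ligand of the engulfment receptor Mertk, that of 22 growth factor genes (log2 fold change 1.02, SE 0.18, edgeR adjusted p = 0.002), and Chrna7, a nicotinic receptor subunit, that of 22 neurotransmitter receptors (log2 fold change 1.02, SE 0.12, edgeR adjusted p = 6.3e-05). Of 29 imprinted genes Grb10, an adaptor that dampens insulin signalling, rose (log2 fold change 0.41, SE 0.07, edgeR adjusted p = 0.0034), as did Zim1 (0.61), whose call ended when any 1 of 12 libraries was left out (highest adjusted p 0.14, on leaving out 24M replicate 1).

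No member was called by edgeR among 15 tested genes of cell senescence and p53 (median -0.06), 19 of NF-kappaB (0.08), 6 of complement (0.29), 22 of the hypoxia response (-0.06), 48 F-box genes (0.02) and 31 known long noncoding RNAs (0.05). An unadjusted p under 0.05 was seen in 3, 2, 2, 2, 2 and 4 of them, in that order. DESeq2 called 1 gene each of the senescence, NF-kappaB and noncoding lists and none of the others, and limma voom called none. Of 15 cytokine, chemokine and receptor genes Il17ra, a receptor chain for interleukin 17, rose (log2 fold change 0.58, SE 0.12, edgeR adjusted p = 0.0091). Of the 3 tested microglia markers Siglech rose from 3.78 ± 0.399 to 6.12 ± 1.197 CPM (SD of the libraries, n = 4; 0.69), while Tmem119 was near 0 as given above, and its call ended when any 1 of 5 libraries was left out (highest adjusted p 0.096, on leaving out 24M replicate 1). Gnb3, the transducin beta subunit of cones and bipolar cells, was the 1 called of 10 tested cone markers, at 16.8, 17.5, 14.4 and 16.3 CPM at 3M and 24.6, 30.3, 42.6 and 30.1 at 24M (log2 fold change 0.97, SE 0.17, edgeR adjusted p = 0.0023). All old libraries were above the young, with 24M replicate 3 the highest. Arr3, cone arrestin, stood at 6.19 to 17.3 CPM at 3M and 9.13 to 13.5 at 24M, with overlapping groups (log2 fold change 0.10, SE 0.32, edgeR adjusted p = 0.95).

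Within genes, the transcript holding the most estimated counts differed between the ages for 7 of the genes described by rank or level. In Tmem116 the share of transcript Tmem116-204 was 37.5%, 29.4%, 39.7% and 34.8% at 3M and 13.7%, 13%, 13.5% and 12.7% at 24M. Transcript Tmem116-201 held 18.8% to 26.9% at 3M and 30.7% to 38.7% at 24M, so neither overlapped. In absolute level Tmem116-204 went from 2.96 to 4.33 CPM and Tmem116-201 from 1.77 to 11.4. In Xrra1 the share of Xrra1-202 was 42.7% ± 4.54 at 3M and 17.1% ± 3.65 at 24M (SD of the libraries, n = 4), without overlap. In Atp9a the leader depended on the library, with Atp9a-201 at 85.3%, 92.1%, 0% and 0% of the gene in the 4 old libraries. These shares are model estimates from reads that transcripts of a gene share, and they were not tested.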

How the data were processed

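Gene expression was measured by RNA-seq of sorted rods. The authors deposited estimated counts per transcript, made with kallisto 0.42.5 on GRCm38.p4 per the submitters' processing notes, which also name edgeR 3.13.9 and limma 3.32.2. No source used here gives the strand setting or annotation of the counting. A normalized CPM table, a signal that the authors scaled and deposited for 13 of the 16 libraries, served only to list those libraries. Columns of per-sample values left unused numbered 0.

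Estimated counts were summed to genes (111896 of 113468 transcripts matched) and rounded. Transcripts without a match held 0.73% to 0.978% of counts and were left out. Genes reaching 5 CPM in 4 or more libraries were fitted in R 4.3.3 with edgeR 4.0.16 (TMM scaling, quasi-likelihood test, 1 mean per age over all 16 libraries, which share 1 estimate of spread), and p-values were adjusted over all 12177 genes by Benjamini-Hochberg. CPM means are given with the SD of 4 libraries. The fit was tested on simulated data. Each library was counted as a replicate, as the design text has it. No pair of the 8 agreed within sampling noise (lowest chi-square per degree of freedom 17.6), which separates them from a library deposited again but not from repeat preparations of 1 sample. Replicate numbers were not taken to pair the samples. Alternatives were DESeq2 1.42.0, limma 3.58.1 voom with and without quality weights, other scaling and filters, fewer libraries, covariates and leaving out each library. Intervals of counts cover counting error only.

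Members and lists were chosen with earlier results of these data known. Named genes were protein-coding ranks 13 to 36 per direction (mean of at least 5 CPM, called, no overlap), up to 15 noncoding genes and the 10 highest-expressed per direction, up to 4 called members per list, and called genes within 50000 bases of each other. Dock4, Zfp277, Rdh9, Arr3, Pcdhgc3, Trim43a, Trim43b, 9430037G07Rik, Snhg5 and Zfp949 were added after their values were seen, as was Gm29562. Shared words are 31-base sequences of a gene's annotated transcripts that also occur in another gene. Some genes are not reported here.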

Additional observations from a re-analysis of the deposited data

Results flagged for a closer look

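In 16 of 194 groups of 4 libraries that were looked at, 1 library stood far from the other 3, where the gap to its nearest neighbour relative to the whole range of the group exceeded Dixon's critical value for 4 samples. Chance flags about 1 in 20 groups. Of the 16, 9 had 24M replicate 3 as the library that stood apart.

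The gap of 24M replicate 3 was 0.834 of the range for Plxnb1 (297 CPM against 207 to 222), 0.889 for Hist3h2ba (14.5 against 8.95 to 9.57) and 0.866 for Ip6k3 (19.6 against 10.99 to 12.1). It was 0.845 for Dnah7c, where the library was low (20.4 CPM against 50.1 to 55.5), and 0.874 for Rorb, also low (147 against 271 to 289). Among genes that fell it was 0.852 for Ttyh2 (17.1 against 10.9 to 11.8), 0.886 for Nxnl2 (37.4 against 29.5 to 30.4), 0.856 for Mvb12b (12.2 against 9.59 to 9.97) and 0.848 for Hmgn1 (219.9 against 163 to 172), in each of which it was the old library nearest to the young ones.

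24M replicate 1 stood apart for Pdzd2 (0.875 of the range; 458 CPM against 404 to 411) and for Gm28265 (0.843; 29.96 against 23.6 to 24.6). 24M replicate 2 did so for Tmem116 (0.847; 29.5 against 33.4 to 34.1) and for Gm15387 (0.954; 32.3 against 21.5 to 21.997). 3M replicate 4 did so for Irs1 (0.870; 16.1 against 6.35 to 7.62), for Slc6a8 (0.836; 12.1 against 7.54 to 8.28) and for the small noncoding RNA share (0.883; 19.5% against 17.4% to 17.7%).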

How the results depend on the processing

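Of the 223 genes named by rule, none changed direction under any alternative run, and 169 kept their call without each single library in turn. All 223 were called in the edgeR fit reported, and those named outside the gene lists also had groups without overlap. Their choice thus made a change of direction unlikely, and its absence is no separate support. The counts of calls depended more on the fit. With the 8 libraries of 3M and 24M alone, 230 genes were higher and 139 lower (noncoding 37 and 7), 352 of the 518 calls (67.95%) were made again, and 41 of the 223 named genes lost their call. DESeq2 called 338 lower genes and 19 lower noncoding genes. With limma voom and sample quality weights, 1654 genes were higher and 1657 lower (noncoding 371 and 166), with a length-slope covariate 751 and 643 (102 and 55), with the GC slope 1231 and 1255 (203 and 74), and 1482 and 1398 (372 and 129) when only the 13 libraries that the authors normalized were used. Higher genes made up 62.4% of calls in the edgeR fit reported, 49.95% with quality weights, 53.9% with the length slope, 49.5% with the GC slope and 51.5% with 13 libraries. Noncoding calls were 70 higher and 15 lower with a minimum of 1 CPM and 87 and 21 with no filter, where more genes were tested. For the fits that called more, the cause was not tested. Without each library in turn, calls ranged from 244 (without 3M replicate 2) to 419 higher and from 129 (without 24M replicate 4) to 306 lower, with the highest counts without 12M replicate 4, and noncoding calls from 34 to 57 higher and 4 to 16 lower. The difference in share of counts changed sign without single libraries. For lincRNA (-0.0389 percentage points) it ranged from -0.279 to 0.183, being 0.093 without 3M replicate 1, 0.0145 without 3M replicate 3, 0.118 without 24M replicate 2 and 0.183 without 24M replicate 3. For protein-coding genes (0.206) it ranged from -0.764 to 1.502 and was -0.0632 without 3M replicate 4, -0.764 without 24M replicate 1 and -0.617 without 24M replicate 4. For small noncoding RNA (-0.860) it ranged from -2.68 to 0.456 and was 0.456 without 24M replicate 1 and 0.227 without 24M replicate 4.

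With the replicate number as a block, 285 genes were higher and 159 lower (39 and 6 noncoding). Deviations of same-numbered libraries correlated at 0.36, 0.21, 0.31 and -0.60, and 1 of 4 numbers was its own best match, so pairing by number was not assumed. The correlations take in whole profiles, which also differ in GC slope between libraries, so they cannot exclude a batch shared by number.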
